A study of Mus musculus with 9 samples.

Results

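The genes described here are 44 mouse genes that cells switch on in answer to type I interferon. They were chosen by symbol from a table of 32114 genes measured in lung, and all 44 were found with 1 row each. Sterile saline was given to the control mice. Bacterial lipopolysaccharide (LPS), the endotoxin of Gram-negative bacteria, was given to the LPS group at 50 µg per mouse. The LPS plus PD group received the same LPS and inhaled PD as an aerosol at 10 mg/mL. PD is read here as panaxadiol, a ginseng sapogenin, from the series title. Each group has 3 libraries of polyadenylated lung RNA from mice 12 weeks old. The submitters' design gives 6 animals to a group. Not given in the sources used here are the animals behind each library, the route of LPS and the time of sampling. The libraries may thus be technical samples, and the p-values below are set by how far libraries of a group differ. The labels call the mice female, while Xist, the RNA of the inactive X chromosome, was at most 0.0895 FPKM in every library and the Y-linked gene Ddx3y was at least 15.4 FPKM in every library. FPKM stands for fragments counted on a gene, divided by its length and by the size of the library.

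Type I interferons (interferon alpha and beta) bind the receptor made of Ifnar1 and Ifnar2, whose kinases Jak1 and Tyk2 phosphorylate Stat2. Stat2 and Irf9 are subunits of the factor ISGF3, which binds the interferon-stimulated response element (ISRE) in promoters. LPS can start this loop through the receptor Tlr4 and its adaptor Ticam1 (TRIF), which lead to interferon beta, and Irf7 widens it to interferon alpha. Many interferon-stimulated genes also answer to interferon gamma, the type II interferon, which induces Irf1 and Socs1.

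The promoter windows below show, for 4 of the genes, letter matches to the core of the element that ISGF3 binds. Isg15 and Ifit3 were among the largest differences of LPS plus PD from control, Bst2 was the most abundant of the 44 genes, and Rsad2 had the highest log2 level above control of any gene in a single library. All 4 are among the 12 genes, named below, whose window holds a match. Oasl2 and Ifi44 differed more than Ifit3 (2.44 and 2.40 against 2.38 on the log2 scale) and had no match. Zbp1, with the largest difference, had no window. Each line is the 250 bases before the RefSeq start in GRCm38.p6, written 5′ to 3′ on the gene's strand, with capitals on every match to the ISRE core, which is GAAA, 2 bases of any kind (NN) and GAAA again, or on the other strand TTTC, NN and TTTC. Matches may overlap.
Isg15 (chr4:156200819-156201068, minus strand): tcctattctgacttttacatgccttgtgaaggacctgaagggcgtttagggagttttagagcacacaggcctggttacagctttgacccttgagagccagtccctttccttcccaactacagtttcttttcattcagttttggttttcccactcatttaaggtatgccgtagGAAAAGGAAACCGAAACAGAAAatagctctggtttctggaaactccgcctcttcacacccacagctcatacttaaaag
Ifit3 (chr19:34583279-34583528, plus strand): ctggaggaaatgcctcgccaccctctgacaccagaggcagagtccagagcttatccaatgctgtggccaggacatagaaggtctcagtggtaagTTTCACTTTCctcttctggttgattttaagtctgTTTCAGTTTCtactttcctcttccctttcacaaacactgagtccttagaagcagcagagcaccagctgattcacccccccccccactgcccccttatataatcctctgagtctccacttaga
Rsad2 (chr12:26456453-26456702, minus strand): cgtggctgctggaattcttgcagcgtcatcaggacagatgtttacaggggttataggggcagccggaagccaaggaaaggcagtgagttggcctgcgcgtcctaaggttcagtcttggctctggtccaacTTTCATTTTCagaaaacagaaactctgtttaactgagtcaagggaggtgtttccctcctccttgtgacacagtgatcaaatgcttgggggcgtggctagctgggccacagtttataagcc
Bst2 (chr8:71537473-71537722, minus strand): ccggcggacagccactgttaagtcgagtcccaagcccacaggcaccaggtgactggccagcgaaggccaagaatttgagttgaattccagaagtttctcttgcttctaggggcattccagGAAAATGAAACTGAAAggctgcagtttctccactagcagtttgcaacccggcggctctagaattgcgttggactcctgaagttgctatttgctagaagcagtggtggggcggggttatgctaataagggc
In Isg15 3 overlapping matches form the single run GAAAAGGAAACCGAAACAGAAA, which lies 78 to 57 bases before the start. Ifit3 holds a pair of matches on the other strand, TTTCACTTTC and TTTCAGTTTC, and the same pair of letters stands in the windows of its neighbours Ifit3b and Ifit1. The RefSeq table had a promoter for 33 of the 44 genes. The core was in 12 of these 33 windows (36.4%), and in 936 of the 27025 windows of all genes in the table (3.46%). The 12 were Bst2, Ifit1, Ifit3, Ifit3b, Isg15, Oas1a, Oas1g, Oas3, Phf11b, Rsad2, Stat2 and Trim30a. Of the 12, 11 had a match within 150 bases of the start, and Stat2 had its match farthest away, 222 bases before it. A match is a string of letters, not a measured binding site.

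The 44 genes lie on 15 chromosomes, and 20 of them stand in 7 clusters of neighbours less than 100000 bases apart. In GRCm38 the Oas genes Oas2, Oas3, Oas1b, Oas1g and Oas1a lie together on chromosome 5 between 120730333 and 120907521, and Oasl2 and Oasl1 on the same chromosome between 114896936 and 114937915. Ifit2, Ifit3, Ifit3b and Ifit1 lie on chromosome 19 between 34550694 and 34650009. Rsad2 and Cmpk2 are neighbours on chromosome 12, Phf11b and Phf11d on chromosome 14, and chromosome 16 holds both Parp14, Dtx3l and Parp9 and the pair Mx1 and Mx2. Some neighbours are near copies: the longest transcripts of Ifit3 and Ifit3b share 98.0% of 1697 aligned bases, and those of Oas1a and Oas1g 97.5% of 1860. The pair Phf11b and Phf11d shares 90.7%. The sources used here do not say how reads matching both copies were assigned, so the levels of these 6 genes are uncertain as single values.

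Depth, recovered from the step size of the values of single-exon genes, was 15.2 to 19.2 M reads per library. LPS replicate 2 stood apart from the other 8 libraries: across genes, it correlated with its nearest library at 0.914, against at least 0.971 for each of the others. Genes are not independent replicates, so these values describe the libraries and test nothing. Marker genes of neutrophils summed to 103 to 367 FPKM in the controls, to 1888, 4481 and 1231 in the LPS libraries and to 1286, 2299 and 3960 in the LPS plus PD libraries. LPS replicate 2 also had the lowest sums of airway epithelium markers (4890 FPKM, against 23666 to 45747 in the controls) and of alveolar epithelium markers (3652 FPKM, against 8568 to 15312). Endothelium markers summed to 365 FPKM there and to 418 to 836 in the controls. FPKM is relative to the size of the library, so a lower sum need not be less RNA. In whole lung, fewer cells of a type and less RNA per cell cannot be told apart either.

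The controls already transcribed many of these genes at readable levels, and the order of the 44 by level was set by a few. Bst2, or tetherin, which ties budding virus particles to the cell membrane, had the highest mean of the 44 in control at 113 ± 27.2 FPKM (SD, n = 3). Ifi27l2a, a small interferon-induced membrane protein, followed at 51.6 ± 26.2 FPKM and Ifi35 at 30.5 ± 5.57 FPKM, and their ranges overlapped. Oas3 was the lowest at 0.206 ± 0.0811 FPKM. Within the controls the highest library was a median of 1.47 times the lowest, from 1.08 for Parp12 to 4.09 for Oas2.

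The LPS libraries differed widely from each other. In LPS replicate 2 the 44 genes stood at a median of 10.0 times the control mean, with 43 of 44 above every control (28.2% of all 16227 genes tested). In LPS replicate 1 the median was 1.77 times and 34 were above every control (30.7% of all genes), and in LPS replicate 3 it was 1.16 times and 21 were (30.2%). LPS replicate 2 was the highest of all 9 libraries for 41 of the 44 genes (19.3% of all genes), the exceptions being Bst2, Ifi27l2a and Ifi35. The highest LPS library was a median of 9.28 times the lowest, and up to 51.2 times for Oas3. The median SD of the log2 levels in LPS was 1.57 for the 44 genes and 0.28 over all genes tested.

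The LPS plus PD libraries resembled each other and lay between these extremes. Their medians were 3.67, 2.98 and 2.96 times the control mean in replicates 1, 2 and 3, and 44, 41 and 44 of the genes were above every control (32.8%, 24.8% and 27.8% of all genes). The 44 genes together summed to 1767, 1483 and 1786 FPKM in LPS plus PD, to 803, 4035 and 608 FPKM in LPS replicates 1, 2 and 3, and to 432 to 564 FPKM in control. For 38 of 44 genes all 3 LPS plus PD libraries were above both LPS replicate 1 and LPS replicate 3 (7.72% of all genes), and for 41 of 44 all 3 were below LPS replicate 2 (26.8%). The exceptions to the first count were Dtx3l, Epsti1, Mx1, Samhd1, Trim25 and Xaf1, and to the second Bst2, Ifi27l2a and Ifi35. The split of the LPS libraries in these counts follows the levels of the same genes, so the counts describe the libraries and test nothing. Against all 3 LPS libraries, every LPS plus PD library was higher in 1 of the 44 genes (3.99% of all genes) and lower in 0 (4.02%). The highest LPS plus PD library was a median of 1.57 times the lowest.

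**Figure D1:**
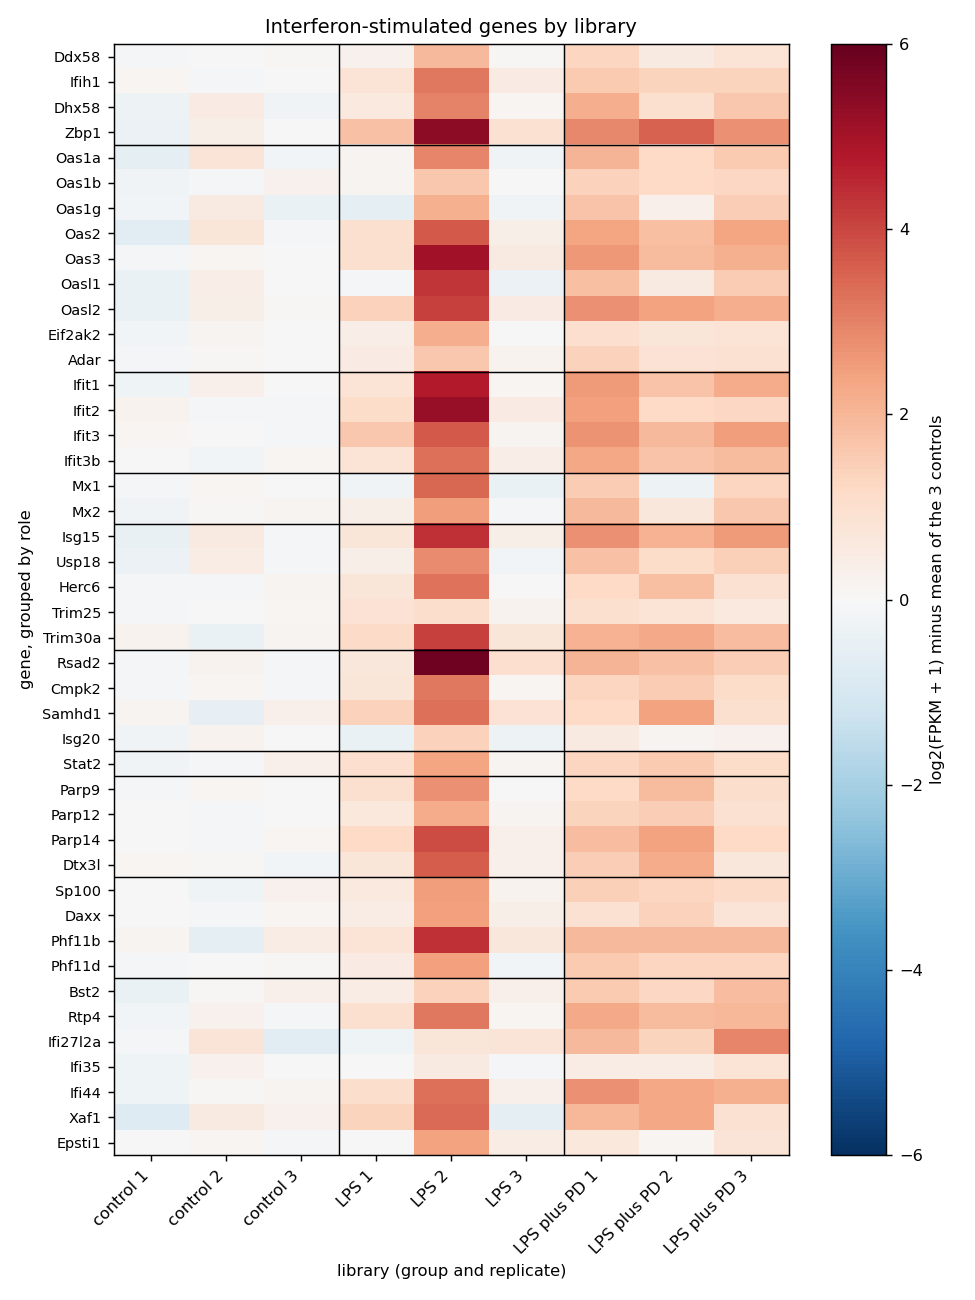
Level of each of the 44 genes in each of the 9 libraries, as log2(FPKM + 1) minus the mean of the 3 controls (colour scale, red above and blue below), with genes in rows grouped by role and libraries in columns. LPS replicate 2 is the darkest column, and LPS replicates 1 and 3 are pale. The 3 LPS plus PD columns are mostly red in shades that differ by gene, and Mx1 is below control in LPS plus PD replicate 2.

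**Figure D2:**
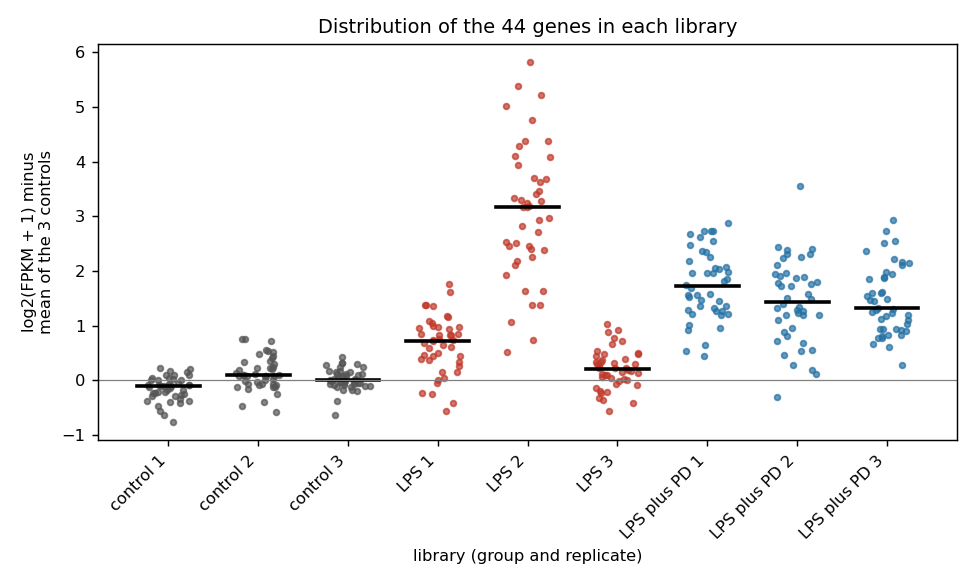
The same values as points, 1 point per gene, with a bar at the median of the 44 genes in each library (y axis: log2(FPKM + 1) minus the mean of the 3 controls). The medians are 0.73, 3.16 and 0.21 in LPS replicates 1, 2 and 3 and 1.72, 1.44 and 1.31 in LPS plus PD replicates 1, 2 and 3.

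Among the sensors of foreign RNA and other nucleic acid, Zbp1, which senses left-handed nucleic acid and can trigger cell death, was at 1.31, 2.81 and 2.05 FPKM in the controls. In the LPS libraries it was at 9.20, 124 and 4.66 FPKM, and in LPS plus PD at 20.99, 34.3 and 19.0 FPKM. Ddx58 (RIG-I), a sensor of viral RNA ends, was at 8.17, 8.77 and 9.02 FPKM in control, 10.6, 35.6 and 9.08 in LPS and 22.2, 13.2 and 16.2 in LPS plus PD. For both genes every LPS plus PD library was above every control. Ifih1 (MDA5), which senses long double-stranded RNA, and Dhx58 (LGP2), which tunes the other RNA helicases, were also above every control in all 3 LPS plus PD libraries. Zbp1 had the largest difference between LPS plus PD and control of the 44 genes, 3.06 on the log2(FPKM + 1) scale. This scale understates the change of lowly expressed genes.

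The genes linked to double-stranded RNA include the oligoadenylate synthetase family (Oas and Oasl genes), the kinase PKR (Eif2ak2) and the RNA editor Adar. Active synthetases of the family make the messenger that activates RNase L, and not every member is active. Oasl2 was at 4.27, 7.88 and 6.38 FPKM in control, 17.2, 118 and 8.78 in LPS and 45.4, 36.8 and 30.3 in LPS plus PD. Oas1a was at 3.24, 9.59 and 4.55 FPKM in control and 6.01, 46.8 and 4.39 in LPS, so that LPS replicates 1 and 3 lay within the control range. In LPS plus PD it was at 25.0, 13.4 and 17.9 FPKM, above every control. Oas3 stood at 0.126, 0.288 and 0.205 FPKM in control, 1.34, 38.0 and 0.742 in LPS and 6.39, 3.44 and 4.22 in LPS plus PD. It is named for its fold, which was seen first: LPS replicate 2 was 184 times the control mean and LPS plus PD 22.7 times, the largest folds of the 44 genes in both. Among the 9 genes of this role the log2 differences of LPS plus PD from control ran from 0.86 for Eif2ak2 to 2.44 for Oasl2.

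Of the IFIT proteins, Ifit1 binds viral RNA that lacks the cap methylation of the host. Ifit3 was at 26.7, 24.3 and 23.8 FPKM in control, 78.2, 335 and 28.0 in LPS and 165, 98.6 and 147 in LPS plus PD. The LPS plus PD libraries were all above LPS replicates 1 and 3, and all below LPS replicate 2. Ifit1 was at 5.92, 9.23 and 7.24 FPKM in control, 13.9, 226 and 8.18 in LPS and 47.9, 26.5 and 37.7 in LPS plus PD, in the same order. Ifit2 and Ifit3b had log2 differences between LPS plus PD and control of 1.64 and 1.98.

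The Mx proteins are dynamin-like GTPases that trap viral nucleocapsids, and GENCODE M21 annotates Mx2, like Oas1b, as a polymorphic pseudogene. Mx1 was at 2.02, 2.57 and 2.16 FPKM in control, 1.77, 34.5 and 1.42 in LPS and 8.34, 1.62 and 7.02 in LPS plus PD. Here LPS plus PD replicate 2 was below every control while the other two were above. Mx2 was at 1.46, 2.04 and 2.23 FPKM in control, 2.65, 15.6 and 1.73 in LPS and 10.2, 3.67 and 7.89 in LPS plus PD, where all 3 were above the controls.

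Isg15 is a ubiquitin-like protein that interferon induces and that conjugating enzymes attach to other proteins, and Usp18 removes it again. Isg15 was at 13.7, 28.5 and 18.2 FPKM in control, 33.0, 421 and 24.5 in LPS and 133, 86.5 and 118 in LPS plus PD. LPS replicate 3 lay inside the control range, and all LPS plus PD libraries were above it. The group means were 20.1 ± 7.54, 159 ± 226 and 113 ± 23.8 FPKM (SD, n = 3 each), so the SD of LPS was larger than its mean. Trim30a, a TRIM family protein of innate immunity, was at 8.09, 4.97 and 7.84 FPKM in control, 16.5, 133 and 11.9 in LPS and 31.9, 36.4 and 27.6 in LPS plus PD. The ubiquitin ligase Trim25, which acts on RIG-I, had the smallest log2 difference of LPS plus PD from control in this role, 0.79.

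Among genes that act on nucleotides and nucleic acids, Rsad2 (viperin), which makes a chain-terminating nucleotide, was at 1.73, 2.32 and 1.63 FPKM in control and 3.65, 162 and 4.84 in LPS. In LPS plus PD it was at 10.9, 8.74 and 6.93 FPKM. It is named for its value in LPS replicate 2, which was seen first. Samhd1, which breaks down deoxynucleotides, was at 21.7, 13.5 and 23.8 FPKM in control, 51.5, 196 and 36.2 in LPS and 45.6, 105 and 37.7 in LPS plus PD. For Samhd1 both treated groups overlapped widely. The exonuclease Isg20 was at 19.3, 26.6 and 22.3 FPKM in control, 16.6, 60.4 and 17.9 in LPS and 33.3, 25.7 and 27.6 in LPS plus PD, and it had the smallest difference of the 44 genes between LPS plus PD and control, 0.33 on the log2 scale.

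Stat2, a subunit of ISGF3, was at 8.54, 9.53 and 12.8 FPKM in control, 21.3, 56.9 and 11.7 in LPS and 26.4, 32.2 and 23.2 in LPS plus PD. Parp14, an ADP-ribosyltransferase, was at 7.74, 6.95 and 8.39 FPKM in control, 18.6, 132 and 9.61 in LPS and 30.2, 44.6 and 18.9 in LPS plus PD. Parp12, of the same family, was at 15.5, 14.3 and 15.3 FPKM in control, 24.2, 75.1 and 16.7 in LPS and 39.1, 44.004 and 29.5 in LPS plus PD. For all 3 genes the LPS plus PD libraries were above every control and above LPS replicates 1 and 3.

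Of the nuclear genes, Phf11b was at 5.12, 2.69 and 6.41 FPKM in control, 8.85, 114 and 7.78 in LPS and 20.5, 20.5 and 20.2 in LPS plus PD. It had the closest LPS plus PD libraries of the 44 genes, the highest being 1.02 times the lowest. Sp100, a protein of the PML nuclear bodies, was at 8.14, 6.62 and 9.80 FPKM in control, 12.7, 50.7 and 9.64 in LPS and 23.7, 20.9 and 19.5 in LPS plus PD. In both genes LPS replicate 2 was the highest library and the LPS plus PD libraries came next.

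Bst2 and Ifi27l2a had their highest levels in LPS plus PD, not in LPS replicate 2. Bst2 was at 84.2, 118 and 138 FPKM in control, 151, 292 and 136 in LPS and 336, 263 and 407 in LPS plus PD, so 2 LPS plus PD libraries were above every LPS library. Ifi27l2a was at 43.5, 80.9 and 30.4 FPKM in control, 39.8, 79.8 and 81.6 in LPS and 187, 123 and 371 in LPS plus PD. It was the single gene of the 44 whose LPS plus PD libraries were all above every LPS library (3.99% of all genes). The third of these genes, Ifi35, a partner of the interferon-induced protein Nmi, differed least in LPS replicate 2, at 1.44 times the control mean.

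**Figure D3:**
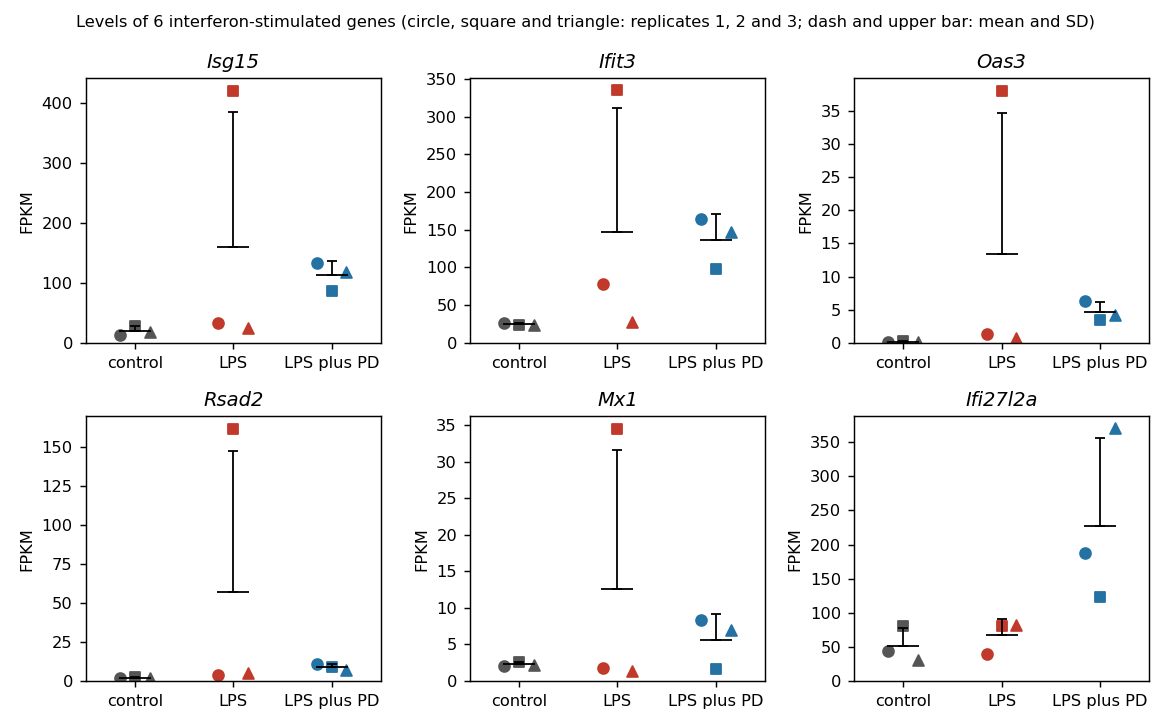
FPKM (y axis, linear from 0) of Isg15, Ifit3, Oas3, Rsad2, Mx1 and Ifi27l2a in the 9 libraries by group, with replicates 1, 2 and 3 as circle, square and triangle and the mean with its upper SD. In all but Ifi27l2a the square of LPS stands far above every other point, and in Mx1 the square of LPS plus PD lies at the level of the controls.

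The comparison of LPS with control asked whether endotoxin raised these genes. The levels were compared in limma on log2(FPKM + 1) with 1 mean per group over all 9 libraries, and p-values were adjusted over the 16227 genes with a mean of at least 0.5 FPKM, all 44 among them. In this fit 613 of all genes passed an adjusted p of 0.05 (3.78%), 200 higher (1.23%) and 413 lower. Of the 44, 0 passed, while 13 had an unadjusted limma p below 0.05, all higher (10.4% of all genes, 29.9% in either direction). The adjusted p of the 44 ran from 0.0808 for Trim25 to 0.748 for Isg20. All 44 differences were above 0, with a median of 1.27 on the log2 scale against -0.11 over all genes tested. The groups did not overlap, LPS being higher, in 19 of 44 genes (13.8% of all genes). Without LPS replicate 2 the median of the 44 fell to 0.41 and 0 of 44 passed (1.88% of all genes were higher). There 12 had an unadjusted limma p below 0.05, all higher (10.5% of all genes, 25.1% in either direction). Oas1a, Oas1g, Oasl1, Mx1, Isg20 and Ifi35 had a difference below 0 in that fit. Without LPS replicate 3 the median was 1.89 and 3 passed, namely Ifit3, Trim25 and Stat2 (1.94% of all genes were higher there). With array weights, which give libraries that depart from the rest less say, 10 passed (7.75% of all genes were higher) and the median was 0.74.

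The comparison of LPS plus PD with LPS asked what inhaled PD changed. In limma 0 of 16227 genes passed (0%) and so did 0 of the 44. Of the 44, 2 had an unadjusted limma p below 0.05, both higher (2.27% of all genes, 4.02% in either direction). The differences ran from -0.75 for Rsad2 to 1.66 for Ifi27l2a on the log2 scale, with a median of 0.21. Of the 44, 33 were above 0 (56.1% of all genes) and 11 below (43.9%). Ifi27l2a differed by 1.66 ± 0.48 (SE, 95% interval 0.57 to 2.76) and Bst2 by 0.86 ± 0.32 (0.12 to 1.59), with limma adjusted p of at least 0.866 for all 44. The median of the 44 moved with the LPS libraries in the fit. Without LPS replicate 2 the median was 1.18 and all 44 differences were above 0 (47% of all genes). Of these, 39 had an unadjusted limma p below 0.05 (2.56% of all genes as higher, 5.13% in either direction). In that fit 0 passed the adjusted threshold, the lowest limma adjusted p being 0.152. Without LPS replicate 3 the median was -0.28, with 7 differences above 0 (58.6% of all genes), and without LPS replicate 1 it was 0.021, with 23 above 0 (58.8%). With array weights the median was 0.93 and all 44 differences were above 0 (52.3% of all genes). Of these, 31 had an unadjusted limma p below 0.05 (7.22% of all genes as higher, 13.3% in either direction). With these weights 0 of the 44 passed, the lowest limma adjusted p being 0.158.

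The comparison of LPS plus PD with control asked how the lungs given both stood against saline. With all 9 libraries in the limma fit 128 genes passed (0.789%), 61 of them higher (0.376%), and 0 of the 44 did. Of the 44, 26 had an unadjusted limma p below 0.05, all higher (6.71% of all genes, 19.2% in either direction). The lowest adjusted p of the 44 was 0.0686, for Bst2, and the highest 0.695, for Isg20. All 44 differences were above 0, with a median of 1.45 against -0.07 over all genes. In 41 of 44 genes every LPS plus PD library was above every control (13.3% of all genes). The exceptions were Isg20, Mx1 and Oas1g.

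LPS replicate 2 is in no group of this last comparison, but it enters the spread that the groups share in the fit. Without it 38 of 44 genes passed the adjusted threshold in LPS plus PD against control, all higher, where 757 of all genes passed as higher (4.67%). In a limma fit of the 6 libraries compared 35 of 44 passed (3.85% of all genes were higher), all 35 of them among the 38, and with array weights 36 did (4.37%). The differences without LPS replicate 2 and with 6 libraries were the same as with all 9, and their standard errors were smaller. For Zbp1 the difference was 3.06 ± 0.95 with all 9 libraries (limma adjusted p = 0.15) and 3.06 ± 0.30 without LPS replicate 2 (adjusted p = 0.00168). For Isg15 it was 2.46 ± 0.90 (limma adjusted p = 0.194) and 2.46 ± 0.27 (adjusted p = 0.00253), and for Ifih1 1.40 ± 0.58 (adjusted p = 0.235) and 1.40 ± 0.13 (adjusted p = 0.00164). By role, all 4 sensors, 8 of 9 enzymes of double-stranded RNA, all 4 IFIT genes, all 5 of the ISG15 system and TRIM ligases, all 4 PARP and DTX3L genes and all 4 nuclear genes passed without LPS replicate 2. So did Stat2, Mx2 of the Mx pair, 3 of 4 nucleotide and nuclease genes and 4 of the 7 remaining effectors. The 6 that did not pass were Epsti1, Ifi35, Isg20, Mx1, Oas1g and Xaf1. Epsti1, Isg20, Mx1 and Xaf1 passed in none of these 3 fits. In the 33 genes with a promoter window the median difference was 1.97 (1.15 to 2.46) for the 12 with the ISRE core. For the 21 without it the median was 1.30 (0.33 to 2.44). These ranges overlap, and the medians are a description with no test. Ifit1, Ifit3 and Ifit3b, and likewise Oas1a, Oas1g and Oas3, are neighbours among the 12, some of them near copies.

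**Figure D4:**
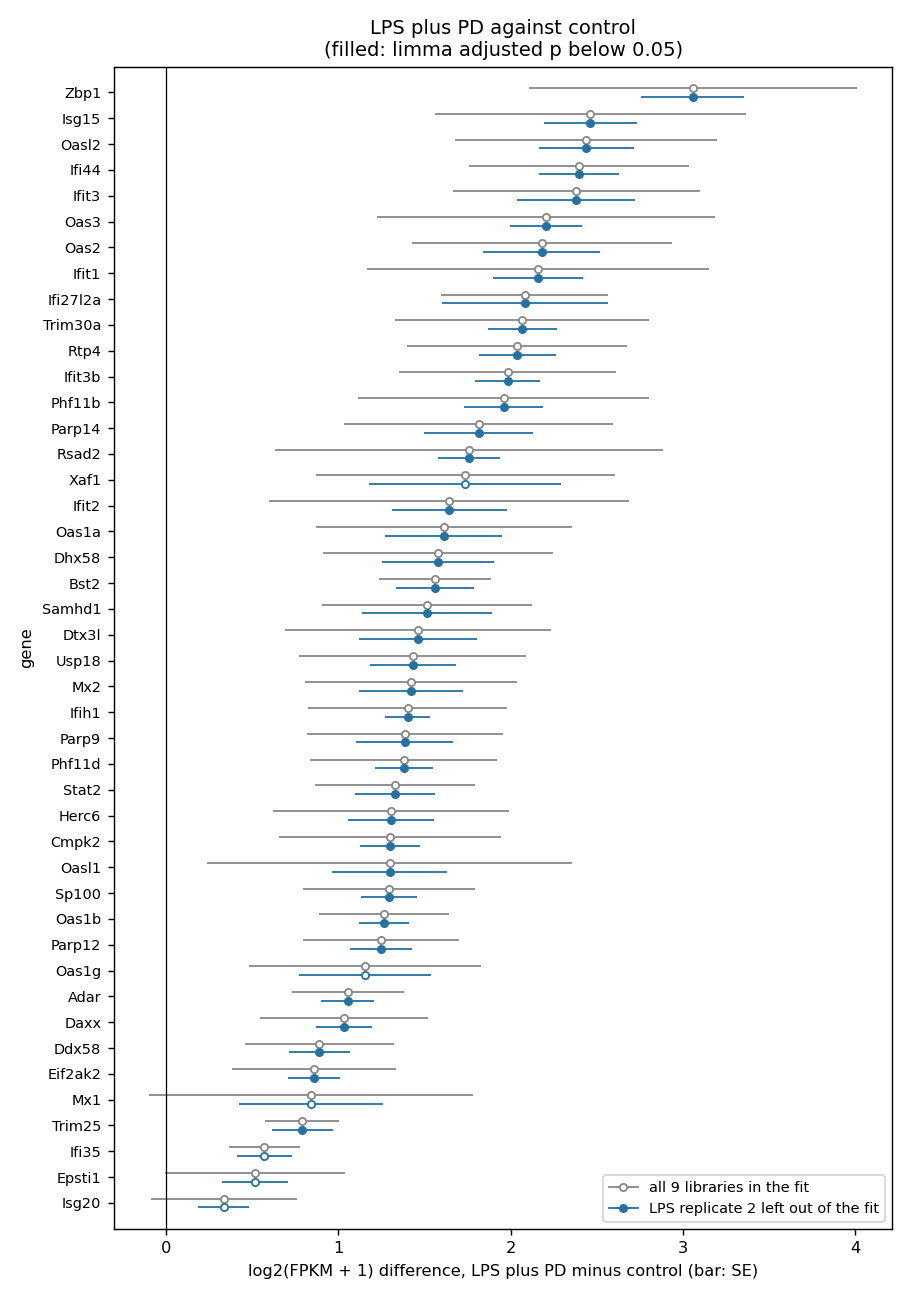
Difference of LPS plus PD from control for each of the 44 genes (x axis: log2(FPKM + 1), bars: SE), with all 9 libraries in the limma fit in grey and without LPS replicate 2 in blue, filled where the adjusted p is below 0.05. The points of a gene coincide, the grey bars are longer for nearly all genes, and 38 blue points and 0 grey points are filled.

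The marker lists of other cell types gave the following sums. Monocyte markers summed to 110 to 131 FPKM in control and to 334, 470 and 539 FPKM in LPS plus PD. In LPS replicates 1, 2 and 3 they summed to 128, 823 and 235 FPKM. Of the 8 monocyte genes, 6, 8 and 8 were above every control in LPS replicates 1, 2 and 3, and 8 in each LPS plus PD library. The shares of all genes above every control were 30.7%, 28.2% and 30.2% in LPS and 32.8%, 24.8% and 27.8% in LPS plus PD. Plasmacytoid dendritic cell markers, whose list holds Bst2 itself, summed to 134 to 204 FPKM in control, 173, 346 and 161 in LPS and 375, 298 and 447 in LPS plus PD, and 4, 6 and 3 of the 7 genes were above every control in LPS and 5, 4 and 3 in LPS plus PD. Without Bst2 the other 6 genes summed to 30.5 to 85.9 FPKM in control, 21.7, 54.0 and 24.8 in LPS and 39.8, 35.5 and 40.3 in LPS plus PD. Siglech, a defining marker of those cells, was at 0.105, 0.282 and 0.137 FPKM in control, 0.283, 6.09 and 0.155 in LPS and 0.290, 0.144 and 0.200 in LPS plus PD. Alveolar macrophage markers, whose list shares Chil3 with that of monocytes, summed to 184 to 264 FPKM in control, 215 to 358 in LPS and 339 to 639 in LPS plus PD. Of the 7 matched genes of this list, 1, 2 and 3 were above every control in LPS and 2, 5 and 5 in LPS plus PD. Markers of T and NK cells summed to 9.02 to 24.6 FPKM in control, 16.7 to 64.8 in LPS and 22.1 to 58.9 in LPS plus PD, and those of B cells to 25.0 to 45.7, 20.4 to 50.4 and 12.8 to 27.4 FPKM. Their part in the levels of the 44 genes was not tested.

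Within the LPS plus PD group the genes did not all order the libraries alike. The groupings here were made after the values were seen. In 7 genes replicate 2 was at least 1.5 times the mean of replicates 1 and 3 (5.08% of all genes), namely Dtx3l, Herc6, Parp14, Parp9, Samhd1, Xaf1 and Zbp1. In 13 it was at most 1/1.5 of that mean (17.1% of all genes): Dhx58, Epsti1, Ifi27l2a, Ifit1, Ifit2, Ifit3, Mx1, Mx2, Oas1a, Oas1g, Oas2, Oas3 and Oasl1. By the same measure replicate 1 was high in 9 (8.21%) and low in 1 (7.27%), and replicate 3 was high in 1 (10.6%) and low in 7 (6.88%). Among the signalling genes 3 are named for their values in replicate 2, which were seen first. Irf1, a factor that interferon gamma induces strongly, was at 39.1, 147 and 37.0 FPKM in LPS plus PD replicates 1, 2 and 3, and Socs1, a feedback inhibitor of the Janus kinases, at 4.48, 16.1 and 4.07 FPKM. Both Irf1 and Socs1 had their highest value of all 9 libraries in LPS replicate 2. Any part of interferon gamma in these values was not tested. Irf7, the master factor of interferon alpha production, was at 156, 40.9 and 94.5 FPKM. Each of these is a value of a single library, with no replicate.

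Of 53 listed genes of interferon signalling outside the 44, 38 were matched in the table and 33 passed the filter on low values. The 3 type I interferon ligands that were matched were at most 0.223 FPKM. Ifnb1 (interferon beta) was listed at 0 in 8 libraries and at 0.0875 FPKM in LPS replicate 2, Ifnab at 0 in 8 and at 0.113 FPKM in LPS replicate 1, and Ifnk was at most 0.223 FPKM. The other 15 type I ligand symbols listed, the interferon alpha genes among them, were not matched, and their levels were not analysed here. Ifng (interferon gamma) was at 0.458, 0 and 0.179 FPKM in control, 0.185, 36.4 and 0.18 in LPS and 0.134, 0.235 and 0.121 in LPS plus PD. It was high in LPS replicate 2 alone, and in the other 8 libraries at most 0.458 FPKM.

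Among receptors, Ifnar2 was at 16.3, 15.5 and 17.1 FPKM in control, 24.1, 31.3 and 23.1 in LPS and 30.7, 25.9 and 27.1 in LPS plus PD, with both treated groups above every control. It was the 1 gene of the 33 that passed for LPS against control (3.78% of all genes), higher by 0.64 ± 0.15 on the log2 scale (limma adjusted p = 0.0498). It passed in 3 of 17 alternatives, where its limma adjusted p ran from 0.00996 to 0.18, and was lost without each library other than LPS replicate 3 (0.0543 without LPS replicate 2). The interferon gamma receptor chains Ifngr1 and Ifngr2 were at 30.2 to 47.4 and 23.9 to 26.8 FPKM in control, 59.1 to 113 and 30.7 to 37.2 in LPS, and 68.5 to 90.0 and 24.2 to 41.6 in LPS plus PD. Irf7 was at 4.51, 6.81 and 6.35 FPKM in control, 21.6, 102 and 26.3 in LPS and 156, 40.9 and 94.5 in LPS plus PD. It was the 1 gene of the 33 that passed for LPS plus PD against control (0.789% of all genes), higher by 3.65 ± 0.61 (limma adjusted p = 0.0393). It passed in 7 of 17 alternatives, with a limma adjusted p from 0.00213 to 0.155, and of the fits that left out 1 library it passed in that without LPS replicate 2 alone (0.00286). For LPS plus PD against LPS 0 of the 33 passed (0%). Without LPS replicate 2, 13 of the 33 passed for LPS plus PD against control, all higher (4.67% of all genes), with Irf7, Irf9, Ifnar2, Jak1 and Jak2 among them, and 3 for LPS against control (1.88%), namely Ifngr1, Socs3 and Tlr7.

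**Figure D5:**
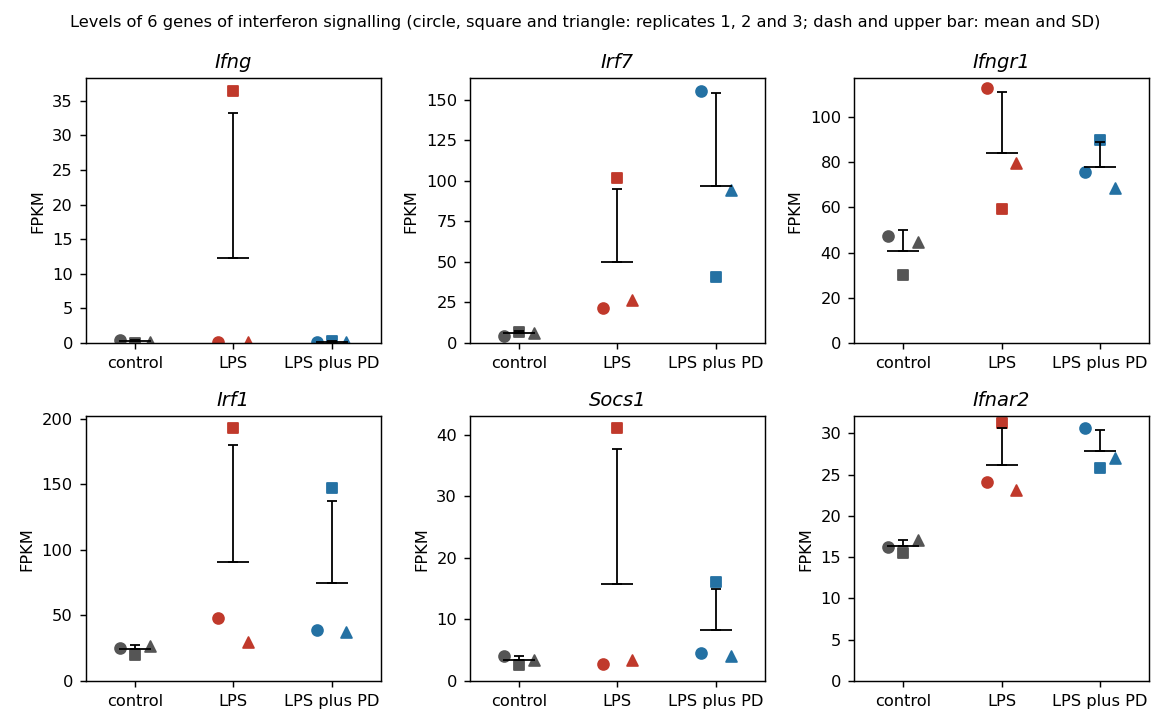
FPKM (y axis, linear from 0) of Ifng, Irf7, Ifngr1, Irf1, Socs1 and Ifnar2 by group, with replicates 1, 2 and 3 as circle, square and triangle and the mean with its upper SD. Ifng is seen in LPS replicate 2 alone, and the square of LPS plus PD is high for Irf1 and Socs1 and low for Irf7.

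LPS replicate 2 was the highest of all 9 libraries for 25 of the 33 signalling genes, where it was for 19.3% of all genes. Myd88, the adaptor of most Toll-like receptors, was at 18.3 to 23.5 FPKM in control, 25.3 to 83.0 in LPS and 28.7 to 31.0 in LPS plus PD. Tbk1, the kinase that activates Irf3, was at 11.4 to 16.4 FPKM in control, 19.9 to 41.8 in LPS and 21.3 to 25.4 in LPS plus PD. Socs3, a feedback inhibitor, was at 20.2 to 22.4, 33.0 to 115 and 32.1 to 36.7 FPKM, and the phosphatase Ptpn2 at 10.8 to 12.3, 11.1 to 22.0 and 10.7 to 11.9 FPKM. In all 4 of these genes the highest value was that of LPS replicate 2. For Myd88, Tbk1 and Socs3 both treated groups were above every control, whereas for Ptpn2 LPS plus PD lay within or below the control range.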

How the data were processed

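Poly(A)-enriched lung RNA was measured in 9 libraries, 3 per group. The values used are the FPKM per gene that the authors deposited in 1 table. The authors made them with HISAT2 and StringTie on GRCm38, after bcl2fastq and FastQC, per the submitters' processing notes. Not given in the sources used here: versions, strandedness, and how reads matching several genes were treated. Every column was joined to its sample by name. Genes with a mean of at least 0.5 FPKM (16227 of 32114) were fitted in limma 3.58.1 (R 4.3.3) on log2(FPKM + 1), with 1 mean per group, a variance trend and Benjamini-Hochberg adjustment over all genes tested, at 0.05. The fit was tested on simulated data. The labels do not say what a replicate number marks, so the main fit held no replicate block. Deviations of same-numbered libraries correlated between -0.18 and 0.19, and those of other pairs between -0.21 and 0.11. With 3 libraries per group these values cannot decide whether the numbers pair the libraries. Of 17 alternatives per comparison, 9 left out 1 library each. The others were a pseudocount of 0.1, median-ratio scaling, quantile normalization, no filter, a minimum mean FPKM of 5, a fit of 6 libraries, array weights and the replicate number as a block.

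Depth was found as the number of reads at which the FPKM of 7787 genes of a single exon, with GENCODE M21 lengths, become whole. Between 99.0% and 99.4% of values under 100 reads then lay within 0.05 of a whole read. Intervals and errors do not cover how reads were assigned. Of the 44 genes, 43 had the coordinates of GENCODE M21, and the end of Daxx differed by 1 base. Near copies were compared by local alignment of the longest transcripts, which replaced the planned comparison of proteins, not used here. Promoters came from RefSeq (GRCm38.p6) and were searched in Python 3.11.15.

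Values in every library are given for the 2 genes of each role with the highest mean FPKM and for genes past the threshold. Signalling genes are given by the same rule, and 1 of them is not reported here. The 44 genes, the roles and the signalling and marker lists were chosen with earlier results of these data known. Markers of neutrophils, monocytes, alveolar macrophages, plasmacytoid dendritic cells, T and NK cells, B cells, alveolar and airway epithelium and endothelium were summed per library, and Siglecf was not matched.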

Additional observations from a re-analysis of the deposited data

How the results depend on the processing

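With 3 libraries per group and 1 that stands apart, the count of genes passing depended on the libraries in the fit. For LPS against control the 613 genes became 38 with no filter, 270 at a mean FPKM of 5, 370 with median-ratio scaling, 9 with 6 libraries, 3308 with array weights and 10 with the replicate block, and 7 to 1038 when 1 library was left out. Of the 44 genes, 10 passed with array weights, 0 to 3 with 1 library left out, and 0 in the other alternatives. With array weights the differences of Oas1g, Mx1 and Isg20 turned to -0.24, -0.079 and -0.26. With 1 library left out they ran from -0.39 to 0.95 for Oas1g, -0.32 to 1.61 for Mx1, -0.37 to 0.53 for Isg20, -0.035 to 1.54 for Oas1a, -0.21 to 2.11 for Oasl1 and -0.011 to 0.29 for Ifi35. The lowest was that without LPS replicate 2 in all 6. The median of all genes was -0.11 as deposited, -0.00 with median-ratio scaling and -0.03 with quantile normalization.

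For LPS plus PD against LPS 1, 1 and 2 genes passed with median-ratio scaling, quantile normalization and array weights, and 0 of the 44 in every alternative. For LPS plus PD against control the 128 genes became 6 with no filter, 1193 with 6 libraries, 1568 with array weights, 4 with the replicate block and 2 to 1613 with 1 library left out. Of the 44 genes 35 passed with 6 libraries, 36 with array weights and 0 to 38 with 1 library left out, the 38 being without LPS replicate 2. Their median was 1.67 with a pseudocount of 0.1. The replicate block called 0 of the 44 in every comparison. Beyond the construction of each alternative, the cause of these shifts was not tested.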
